A study of Mus musculus with 6 samples.

Results

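Clca1, Fcgbp, Zg16, Muc2, Agr2, Spdef and Tff3 are genes best known from goblet cells, the mucus-secreting cells of the intestine. They are described here in RNA from mouse stomach. The 7 genes were taken by symbol from an expression table of 23550 gene symbols, and all 7 were found in it. They were chosen by their levels in this same Riclin and saline comparison, above all the low level of Clca1 in Riclin stomachs, so their differences between the groups are given as descriptions, with sizes and errors and no test. Of the 7, 6 passed the filter on low values that the fit over all genes used (FPKM 1 or more in 3 or more of the 6 libraries), and Muc2 did not. FPKM is the number of sequenced fragments of a gene scaled to the gene's length and to the total fragments of the library.

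The libraries came from mice that received the soluble dietary fibre Riclin by gavage at 20 mg/kg (3 libraries, numbered 2, 3 and 4), and from mice given normal saline by gavage (3 libraries, numbered 1, 2 and 4). Dosing ran for 14 days in an experiment of 20 mice on the gastric mucosal defence barrier. The treatment labels name no ethanol, which the study used in a separate injury experiment. The tissue label says stomach, and the sources used here do not give strain, age, sex, the part of the stomach sampled or the animal behind each library, so the spread between libraries may be partly technical. Read totals implied by the FPKM values ran from 30884067 to 40050267 per library.

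Mucus is built from gel-forming mucins that are folded and linked by disulphide bonds in the endoplasmic reticulum, packed into granules, released and then unfolded with chloride and bicarbonate. In the intestine that mucin is Muc2, and Clca1 (a secreted metalloprotease that processes the mucus), Fcgbp (a large von Willebrand D-domain protein) and Zg16 (a lectin that binds bacterial peptidoglycan) are secreted with it. Agr2 is a disulphide isomerase needed for mucin folding, Spdef is an ETS transcription factor of secretory cell maturation, and Tff3 is a trefoil peptide secreted with mucins. The stomach has no goblet cells in its normal lining and uses Muc5ac at the surface and Muc6 in the glands. Zg16 was named for zymogen granules and is also made by pancreatic acinar cells.

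On GRCm38, the assembly that mm10 names, GENCODE M21 places Clca1 on chromosome 3 from 145003817 to 145032776 on the minus strand. Fcgbp lies on chromosome 7 from 28071236 to 28120862 on the plus strand. Zg16 lies on chromosome 7 from 127050156 to 127087328 on the minus strand, and Muc2 on chromosome 7 from 141690340 to 141754693 on the plus strand. Agr2 lies on chromosome 12 from 35992907 to 36004087 on the plus strand. Spdef lies on chromosome 17 from 27714352 to 27728955 and Tff3 on chromosome 17 from 31125306 to 31129646, both on the minus strand. All 7 are annotated as protein-coding.

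RefSeq promoter windows on GRCm38.p6, each 300 bases from 250 before the transcript start to 50 after its first base, were matched for 4 of the 7 genes: Fcgbp, Muc2, Agr2 and Spdef. Shown here are 3 of them, that of Fcgbp, which was lower in Riclin, that of Agr2, the gene with the smallest range of levels, and that of Muc2, which was close to silent. Capitals mark matches on either strand, and adjoining matches run together. The motifs searched were the TATA box as TATAAA, the FOXA site of the forkhead factors as TGTTTAC, the ETS form that Spdef prefers as CCGGAT, a general ETS site as AGGAAG, the GATA factor site as AGATAA, the site of the intestinal CDX factors as TTTATNG, and the HNF1 motif.
Fcgbp: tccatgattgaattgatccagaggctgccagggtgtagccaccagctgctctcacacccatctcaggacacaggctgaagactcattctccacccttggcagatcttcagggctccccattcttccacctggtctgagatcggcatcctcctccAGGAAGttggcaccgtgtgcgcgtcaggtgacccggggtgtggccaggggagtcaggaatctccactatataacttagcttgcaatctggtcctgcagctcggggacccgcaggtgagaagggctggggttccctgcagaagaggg
Agr2: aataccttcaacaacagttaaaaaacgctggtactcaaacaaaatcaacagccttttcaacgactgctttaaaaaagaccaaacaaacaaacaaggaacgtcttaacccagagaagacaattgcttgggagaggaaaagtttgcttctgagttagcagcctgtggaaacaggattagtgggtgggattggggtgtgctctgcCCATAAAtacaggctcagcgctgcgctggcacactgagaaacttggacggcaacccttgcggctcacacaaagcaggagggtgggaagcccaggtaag
Muc2: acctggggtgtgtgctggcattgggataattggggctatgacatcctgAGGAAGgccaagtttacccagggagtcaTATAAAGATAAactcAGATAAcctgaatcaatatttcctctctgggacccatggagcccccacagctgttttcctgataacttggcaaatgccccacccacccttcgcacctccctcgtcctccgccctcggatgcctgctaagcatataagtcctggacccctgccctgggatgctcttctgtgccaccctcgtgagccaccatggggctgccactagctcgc
These windows are chr7:28070986-28071285 (plus strand), chr12:35992675-35992974 (plus strand) and chr7:141690090-141690389 (plus strand). The Fcgbp window held 1 match, a general ETS site that begins 96 bases before the transcript start, found in 35.4% of all 32851 promoter windows. The Agr2 window held 1 CDX site, found in 10.9% of windows. The Muc2 window held a general ETS site, a match to the TATA box letters (13.6% of windows) and 2 GATA sites (11.2%). The TATA box match begins 174 bases before the transcript start and shares a base with 1 of the GATA sites. The Spdef window held 2 general ETS sites. None of the 4 windows held the FOXA site, the ETS form that Spdef prefers or the HNF1 motif, which occur in 3.65%, 6.04% and 0.0609% of windows. A match is a description of the letters and does not show binding.

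Clca1 was the member whose groups stood apart most evenly. It measured 77.0, 115 and 118 FPKM in Riclin replicates 2, 3 and 4, against 362, 303 and 365 FPKM in saline replicates 1, 2 and 4. The groups did not overlap, and the lowest saline library was 2.57 times the highest Riclin library. The mean was 103 ± 22.9 FPKM in Riclin and 343 ± 35.2 FPKM in saline (SD, n = 3 each), 3.32-fold lower in Riclin. On the scale log2(FPKM + 1) the difference was -1.74 (SE 0.195, 95% interval -2.20 to -1.29), and it lay between -1.85 and -1.55 when each library was left out in turn. These values rest on 9784 to 15773 reads per library in Riclin and 37222 to 48090 in saline, so counting error is small beside the spread between libraries.

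Fcgbp was also lower in every Riclin library, but far less evenly. It measured 38.5, 45.1 and 0.630 FPKM in Riclin replicates 2, 3 and 4, against 100.5, 83.3 and 138 FPKM in saline replicates 1, 2 and 4. The groups did not overlap, and Riclin replicate 4 stood far below the other 2 Riclin libraries, with 190 reads against 11379 and 14324. The mean was 28.1 ± 24.0 FPKM in Riclin and 107 ± 27.8 FPKM in saline (SD, n = 3 each). The log2 difference of -2.88 (SE 1.15) was -1.31 without Riclin replicate 4. In that library the antral hormone gene Gast was at 2.62 FPKM, against 389 to 420 FPKM in the other Riclin libraries and 676 to 1037 FPKM in saline.

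Clca1 and Fcgbp were 2 of the 6 tested members, and in both every Riclin library lay below every saline library. Over all 11738 genes tested, 3.02% had this pattern and 8.14% had the opposite one. By limma, with the threshold at a Benjamini-Hochberg adjusted p of 0.05, 0 of the 11738 genes (0%) were called, with 693 genes (5.9%) at an unadjusted p under 0.05, and a voom fit to the recovered reads likewise called 0. Because this contrast chose the members, nothing is read from their count against that background.

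**Figure D1:**
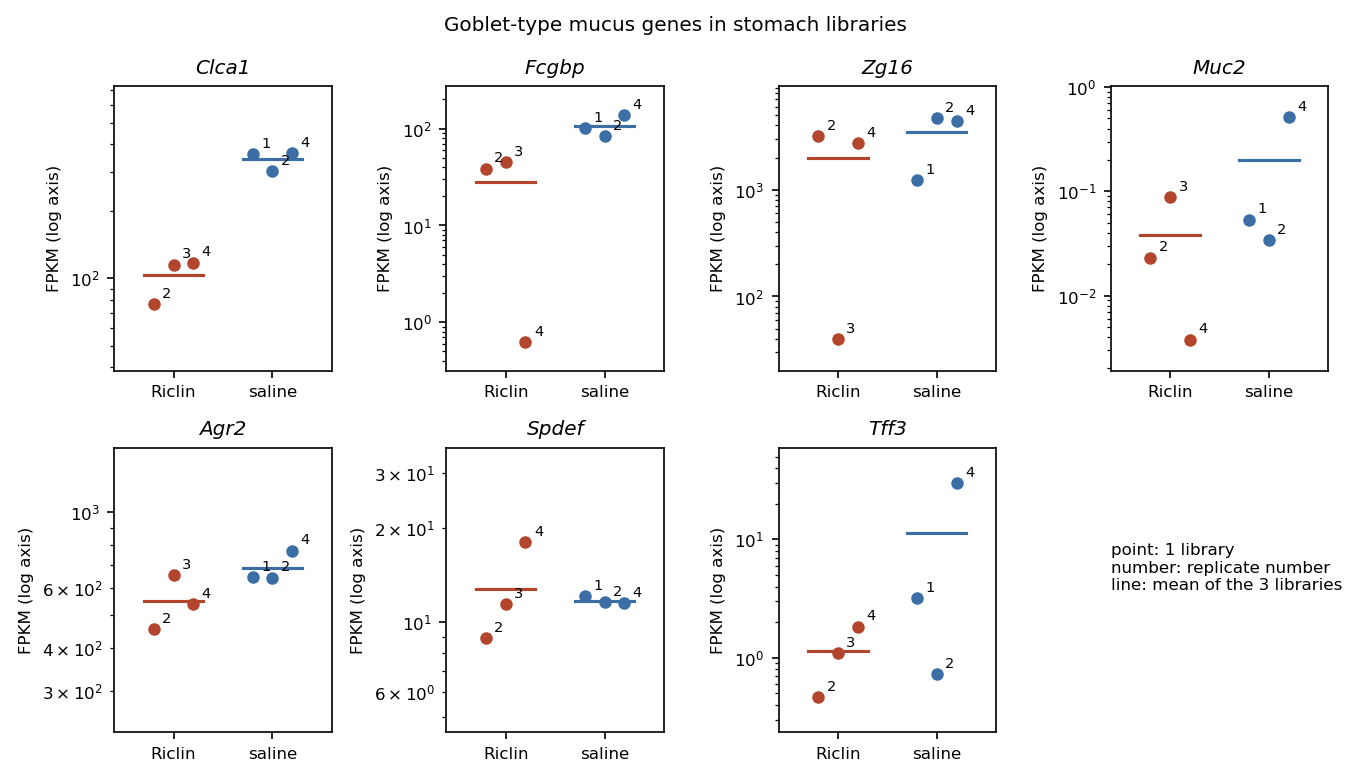
FPKM of the 7 genes in each library on log axes, with Riclin left of saline, 1 point per library labelled by its replicate number and a line at the mean of 3 libraries. The groups are apart for Clca1 and Fcgbp, with Fcgbp at 0.630 FPKM in Riclin replicate 4, while Zg16 is at 40.2 FPKM in Riclin replicate 3 and Tff3 and Muc2 are highest in saline replicate 4.

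Zg16 varied more between libraries of a group than between the groups. It measured 3198, 40.2 and 2716 FPKM in Riclin replicates 2, 3 and 4, against 1232, 4677 and 4410 FPKM in saline replicates 1, 2 and 4. The groups overlapped, Riclin replicate 3 was the lowest of the 6 libraries, and saline replicate 1 was the lowest in its group. The log2 difference was -2.05 (SE 1.56) and was 0.0035 without Riclin replicate 3. Of 26 genes listed for pancreatic acinar cells 25 were in the table, and together they took 12.0, 0.0625 and 11.2% of reads in Riclin replicates 2, 3 and 4, against 4.33, 17.7 and 16.5% in saline replicates 1, 2 and 4. Their summed level ran from 463 to 109660 FPKM in Riclin and from 39960 to 165678 FPKM in saline, and in Riclin replicate 3 the defining enzyme gene Cpa1 was listed at 0 FPKM. The ratio of Zg16 to the elastase gene Cela1, both per length, was 0.608, 0.407 and 0.538 in Riclin replicates 2, 3 and 4, and 0.542, 0.540 and 0.527 in saline replicates 1, 2 and 4. Cela1 was one of the 3 genes found nearest to Zg16 in pattern, so the steadiness of that ratio follows from the choice of gene. The ratio of Zg16 to the zymogen granule gene Sycn was 2.76, 4.90 and 3.02 in Riclin replicates 2, 3 and 4, and 2.63, 2.56 and 2.40 in saline replicates 1, 2 and 4. In Riclin replicate 3 most acinar genes were lower than Zg16 relative to the other libraries. Zg16 stood at 1.26% of its median in the other 5 libraries. Of the 25 acinar genes 19 stood at a lower share of theirs, 5 of them listed at 0, and 6 at a higher share. Clca1 measured 115 FPKM in Riclin replicate 3 and 118 FPKM in Riclin replicate 4, whose acinar shares were 0.0625 and 11.2% of reads. Any part of the acinar share in the level of Clca1 was not tested.

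Muc2 was barely detected. It measured 0.0232, 0.0879 and 0.00378 FPKM in Riclin replicates 2, 3 and 4, against 0.0536, 0.0339 and 0.512 FPKM in saline replicates 1, 2 and 4. The groups overlapped, and saline replicate 4 held most of the signal. The counts behind these values were 12, 49 and 2 reads in Riclin and 29, 17 and 220 reads in saline, with exact 95% Poisson intervals of 0.242 to 7.22 reads for Riclin replicate 4 and 192 to 251 for saline replicate 4, which cover counting error only. Atoh1, the transcription factor that defines intestinal secretory cells, was listed at 0 FPKM in 5 libraries and at 0.0153 FPKM in saline replicate 4. Other genes listed for goblet cells were detected unevenly. Of 62 other goblet pathway genes found, 40 passed the filter on low values. Over the 6 libraries Spink4, a small secreted protein of goblet cells, averaged 58.0 FPKM and the transcription factor Klf4 averaged 48.4 FPKM. By contrast, Retnlb averaged 0.143 FPKM, Guca2a 0.540 FPKM and Gfi1 0.337 FPKM. Whether any goblet cells were in these stomachs was not tested.

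Tff3 followed the same library. It measured 0.469, 1.09 and 1.84 FPKM in Riclin replicates 2, 3 and 4, against 3.20, 0.727 and 29.8 FPKM in saline replicates 1, 2 and 4. The groups overlapped, and saline replicate 4 was 9.32 times the next highest library. The log2 difference was -1.56 (SE 0.914), and -0.39 without saline replicate 4. The counts were 8 to 32 reads in Riclin, and 57, 12 and 422 reads in saline replicates 1, 2 and 4.

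Among the 138 other genes of the fixed pathway and marker lists, 14 were at least 5 times higher in saline replicate 4 than in any other library, and 0 genes stood out in that way in each of the other 5 libraries. The criterion was chosen after the values were seen. They include the intestinal alkaline phosphatase Alpi, at 42.0 FPKM against at most 1.998 FPKM elsewhere, the intestinal cadherin Cdh17, at 6.22 FPKM against at most 0.0793, the chloride exchanger Slc26a3, at 5.30 FPKM against at most 0.0629, and the membrane mucin Muc3, at 1.82 FPKM against at most 0.0213. Sucrase-isomaltase (Sis) and the intestinal transcription factor Cdx1 were at 0.892 and 0.962 FPKM in saline replicate 4 and listed at 0 in the other 5 libraries. Of the 14 genes, 7 were counted because they were listed at 0 in the other 5 libraries, so no fold exists for them. Among these were Atoh1 and Mep1a, at only 0.0153 and 0.254 FPKM in saline replicate 4. The 13 intestinal absorptive genes found, of 14 listed, summed to 1211 to 1780 FPKM in Riclin and 1206 to 1398 FPKM in saline. That sum was made up mostly of Apoa1 and did not separate this library. Of this list only Alpi, Cdh17, Sis, Cdx1 and Cdx2 met the criterion. Fabp2, Rbp2 and Lct were highest in saline replicate 4 by less. Fabp1, Anpep and Vil1 were not highest there, with Fabp1 at 12.5 FPKM against 35.9 FPKM in Riclin replicate 3. Apoa1 and Apoa4 were lowest in saline replicate 4, at 821 and 58.8 FPKM. Clca1 was at 362 FPKM in saline replicate 1, which lists Sis and Cdx1 at 0, and at 365 FPKM in saline replicate 4. Its log2 difference was -1.70 without saline replicate 4. Any part of intestinal transcripts in the level of Clca1 was not tested.

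Agr2 and Spdef, the folding enzyme and the transcription factor, were the steadiest members. Agr2 measured 454, 654 and 538 FPKM in Riclin replicates 2, 3 and 4, against 646, 643 and 770 FPKM in saline replicates 1, 2 and 4. The groups overlapped through Riclin replicate 3 as deposited, but not with median-of-ratios scaling, upper-quartile scaling or acinar genes removed and libraries rescaled. Over all genes tested, the groups of 1310 did not overlap as deposited, and those of 1593, 1619 and 1675 did not in these settings. For Agr2 the gap was narrow. The highest Riclin library was at 605, 600 and 654 and the lowest saline library at 616, 614 and 676, in the same order. The means were 549 ± 100.2 FPKM in Riclin and 686 ± 72.7 FPKM in saline (SD, n = 3 each), a log2 difference of -0.33 (SE 0.195, 95% interval -0.79 to 0.12). Spdef measured 8.91, 11.4 and 18.02 FPKM in Riclin replicates 2, 3 and 4, against 12.1, 11.6 and 11.5 FPKM in saline replicates 1, 2 and 4. The saline values lay inside the Riclin range, the log2 difference was 0.06 (SE 0.217, 95% interval -0.44 to 0.57), and it was -0.20 without Riclin replicate 4 and -0.014 with acinar genes removed. Within each library the ratio of Clca1 to Agr2 was 0.169, 0.176 and 0.219 in Riclin replicates 2, 3 and 4, against 0.561, 0.471 and 0.474 in saline replicates 1, 2 and 4. That ratio, chosen after the values were seen, does not depend on the scaling of the libraries, and its groups did not overlap.

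**Figure D2:**
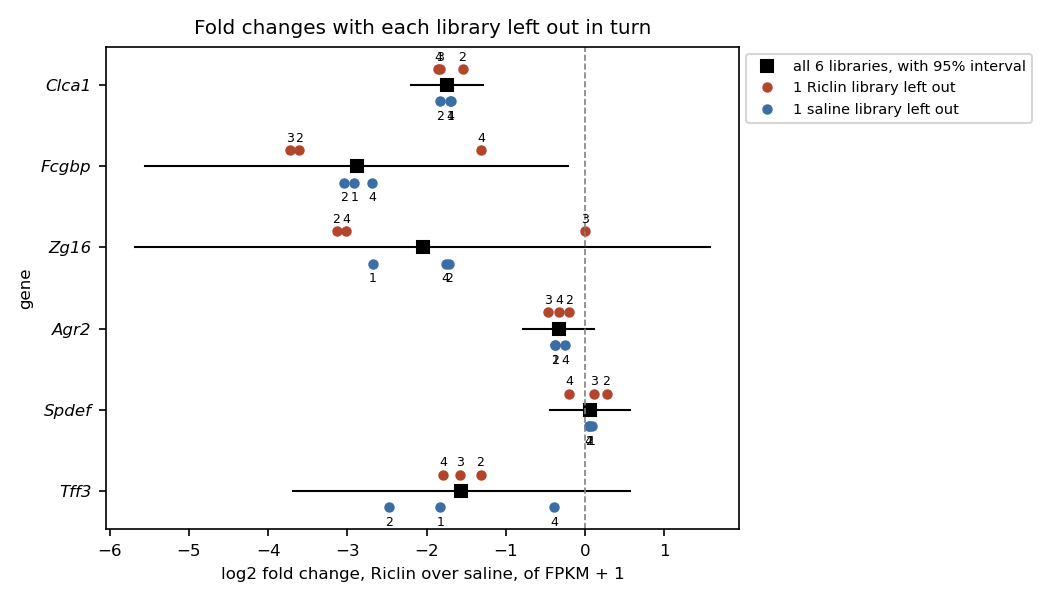
Log2 fold change of Riclin over saline for the 6 tested members (black squares, with 95% intervals from limma), and the same with 1 Riclin library (red) or 1 saline library (blue) left out, labelled by its replicate number. Clca1 stays between -1.85 and -1.55, whereas Fcgbp moves to -1.31 without Riclin replicate 4, Zg16 to 0.0035 without Riclin replicate 3 and Tff3 to -0.39 without saline replicate 4.

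By mean FPKM over the 6 libraries the members ranked in the order Zg16 at 2712, Agr2 at 618, Clca1 at 223, Fcgbp at 67.6, Spdef at 12.3, Tff3 at 6.19 and Muc2 at 0.119. Neighbours in this order overlapped in their ranges over the 6 libraries, except Agr2 and Clca1. Zg16 and Agr2 overlapped only through Riclin replicate 3, and Fcgbp and Spdef only through Riclin replicate 4. Agr2 spanned 1.70-fold and Spdef 2.02-fold over the 6 libraries, Clca1 4.74-fold, and the other 4 members from 63.6-fold for Tff3 to 218-fold for Fcgbp. In bulk tissue fewer cells of a type and less RNA per cell cannot be told apart.

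For each tested member with an SD of log2(FPKM + 1) of at least 0.5 over the 6 libraries, the tested genes nearest in pattern were found by the root-mean-square distance between mean-centred log2 values. Clca1 was nearest to Atcayos (distance 0.318), Cd3g (0.377), Pcp4 (0.396), Ly6m (0.406) and Omp (0.443). Cd3g is a T cell receptor subunit, Pcp4 a small calmodulin-binding protein and Ly6m a member of the Ly6 surface proteins, and none of them is a known goblet gene. Pcp4 measured 7.16, 10.3 and 8.58 FPKM in Riclin replicates 2, 3 and 4, against 20.7, 18.6 and 16.6 FPKM in saline replicates 1, 2 and 4. Ly6m measured 11.3, 16.5 and 12.6 FPKM in Riclin, against 28.4, 23.5 and 30.7 FPKM in saline. Atcayos is annotated as antisense, and its reads may not be separable from those of its partner without strand. Atcayos, Cd3g and Omp were at or below 0.746 FPKM in every Riclin library. These genes passed the filter of 1 FPKM only through the saline libraries, so the filter itself fixed their higher level in saline.

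The other members had different neighbours. Fcgbp was nearest to Gast (0.766), the calcium-binding protein gene S100g (0.809) and the fatty acid carrier Fabp2 (1.10). The ratio of Fcgbp to Gast, its nearest gene, was 0.0917, 0.116 and 0.240 in Riclin replicates 2, 3 and 4, against 0.0969, 0.123 and 0.146 in saline replicates 1, 2 and 4. Gast was found by its small distance from Fcgbp in these same libraries, so the narrow range of that ratio follows from the choice of gene. Zg16 was nearest to 3 acinar genes, the kallikrein Klk1 (0.153), Cela1 (0.168) and the lipase relative Pnliprp1 (0.265). Tff3 was nearest to Alpi (0.702), the claudin Cldn2 (0.782) and the chemokine Ccl5 (0.818). Between members themselves the smallest distance of a tested pair was that of Agr2 and Spdef (0.351). Clca1 lay at a smaller distance from Agr2 (0.719) than from Fcgbp (1.78) or Zg16 (2.27). The distance is not scaled to how much a gene varies, so genes that vary little come out close whatever their pattern. Agr2 and Spdef varied least of the tested members, with an SD of log2 values of 0.264 and 0.305. These distances between members therefore do not show a shared pattern. The part that antral, intestinal and acinar transcripts have in the levels of Fcgbp, Tff3 and Zg16 was not tested.

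**Figure D3:**
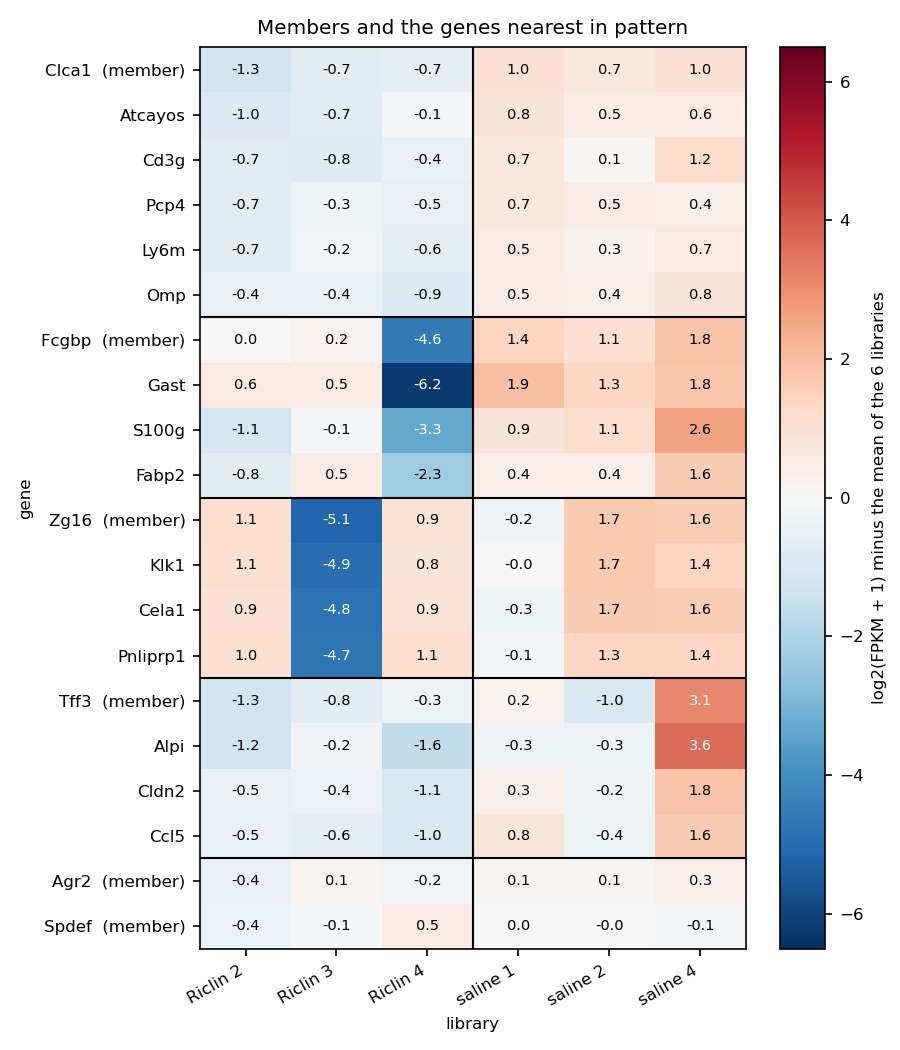
Mean-centred log2(FPKM + 1) of 6 members and the genes nearest in pattern to 4 of them, in the 3 Riclin libraries (left) and the 3 saline libraries (right), with red above and blue below the mean of the 6 libraries. The Clca1 block changes between the groups, whereas the Fcgbp block is lowest in Riclin replicate 4, the Zg16 block in Riclin replicate 3, and the Tff3 block is highest in saline replicate 4.

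The antral list held Gast and the transcription factors Pdx1 and Nkx6-3, which summed to 7.76 to 433 FPKM in Riclin and 699 to 1068 FPKM in saline. Riclin replicates 2, 3 and 4 had antral sums of 433, 410 and 7.76 FPKM and Clca1 at 77.0, 115 and 118 FPKM. Saline replicates 1, 2 and 4 had antral sums of 1068, 699 and 973 FPKM and Clca1 at 362, 303 and 365 FPKM. Across the groups the antral genes Gast and Pdx1 were lower in every Riclin library, as Clca1 was, beside 3.02% of all genes tested. Nkx6-3 overlapped, at 3.21 to 16.5 FPKM in Riclin and 15.3 to 25.2 FPKM in saline. All 3 antral genes had log2 differences below 0 (median -1.24), and none passed the adjusted threshold by limma. Other lists lay on the opposite side of 0. All 8 genes of parietal cells, the acid-secreting cells, had log2 differences above 0, with sums of 4299 to 5764 FPKM in Riclin and 3213 to 4726 FPKM in saline. All 4 genes of chief cells, which make pepsinogen, did so, with sums of 60551 to 81986 FPKM in Riclin and 33800 to 64031 FPKM in saline. So did all 7 tested of 10 genes of the squamous forestomach, with sums of 306 to 435 FPKM in Riclin and 76.6 to 351 FPKM in saline. The median log2 difference was 0.36 for the parietal list, 0.60 for the chief cell list and 0.98 for the forestomach list, beside 0.04 over all 11738 genes tested, of which 7195 lay above 0. Every Riclin library lay above every saline library for 4, 2 and 2 genes of these lists in the same order, beside 8.14% of all genes tested, and no gene of these lists passed the adjusted threshold by limma. Markers of mucous neck cells (5 genes) summed to 2275 to 6150 FPKM in Riclin and 5098 to 13443 FPKM in saline, and those of surface mucous cells (10 genes) to 63910 to 92334 FPKM in Riclin and 66879 to 114408 FPKM in saline, with overlap between the groups for both lists. Of the surface genes 9 of 10 had log2 differences below 0, as did all 4 neck genes tested (medians -0.17 and -0.67), and none passed the adjusted threshold. The keratin gene Krt20 of the surface list measured 136, 181 and 60.2 FPKM in Riclin replicates 2, 3 and 4, against 192, 202 and 274 FPKM in saline replicates 1, 2 and 4. The neck gene Gkn3 measured 333, 690 and 332 FPKM in Riclin replicates 2, 3 and 4, against 771, 726 and 1968 FPKM in saline replicates 1, 2 and 4. Both were lower in every Riclin library and are named because they were the 1 gene of each list that was, beside 3.02% of all genes tested. The part of all these differences in the level of Clca1 was not tested.

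Several members lie in clusters with relatives. Of the 6 other CLCA genes, all within 243 kb of Clca1 on chromosome 3, none passed the filter on low values. The highest values were 2.24 FPKM for Clca4b in saline replicate 4, listed at 0 in the other 5 libraries, and 1.54 FPKM for Clca3a2 in Riclin replicate 4, so Clca1 was the one CLCA transcript at an appreciable level. Muc2 lies 35.0 kb from Muc6 and 34.3 kb from Muc5ac on chromosome 7. Muc5ac averaged 372 ± 132 FPKM in Riclin and 405 ± 122 FPKM in saline, and Muc6 32.8 ± 8.55 FPKM in Riclin and 41.7 ± 10.9 FPKM in saline (SD, n = 3 each). Muc5b stayed at or below 0.731 FPKM, with 0.617 to 0.731 FPKM in Riclin and 0.222 to 0.397 FPKM in saline. Tff3 lies 11.4 kb from Tff2 and 31.7 kb from Tff1, which averaged 3479 ± 1789 and 30718 ± 6358 FPKM in Riclin and 6989 ± 3846 and 34286 ± 8464 FPKM in saline (SD, n = 3 each). Agr3 lies 43.2 kb from Agr2 and stayed at or below 0.636 FPKM.

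**Figure D4:**
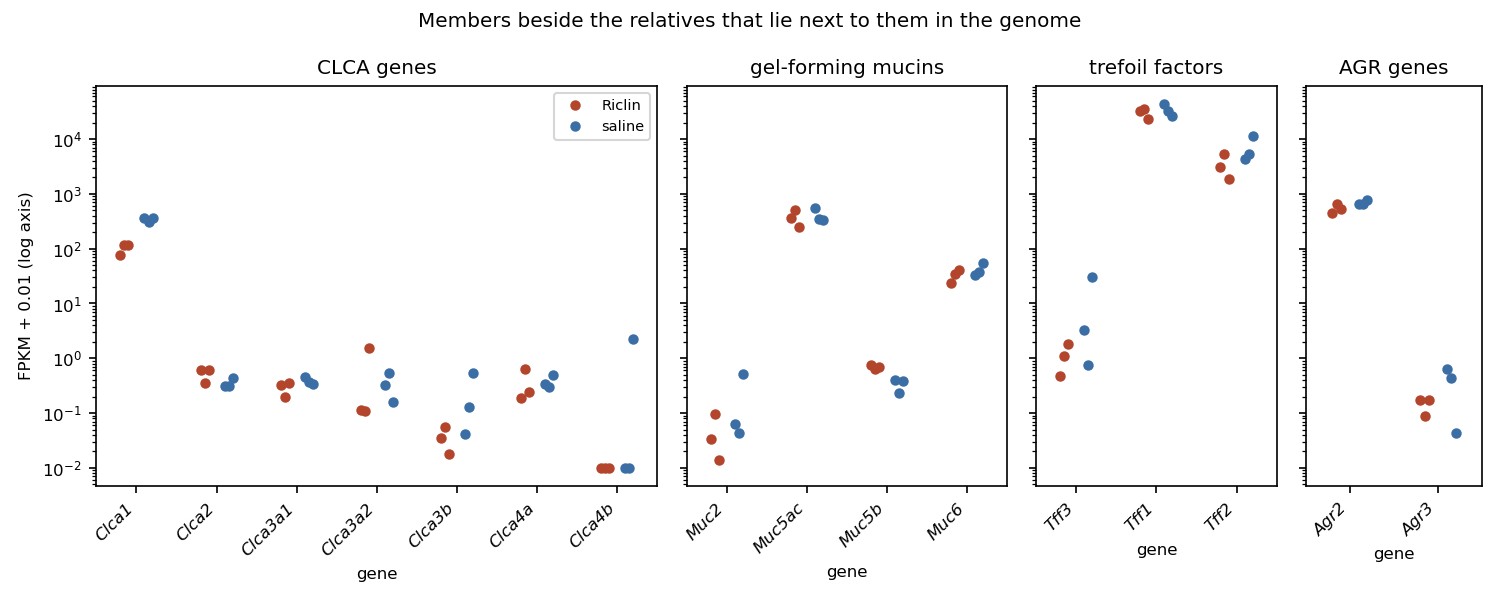
FPKM + 0.01 on a log axis for Clca1, Muc2, Tff3 and Agr2 and the relatives beside them in the genome, 1 point per library with Riclin (red) left of saline (blue). Clca1 and Agr2 stand far above their relatives, whereas Muc2 and Tff3 lie far below Muc5ac, Tff1 and Tff2.

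The rest of the goblet pathway was described with 8 lists of 66 genes that are not members, of which 62 were in the table and 40 were tested. By limma 0 passed the adjusted threshold in either direction, 1 had an unadjusted p under 0.05, 17 had a log2 fold change below 0 and 23 above 0, with a median of 0.06 beside 0.04 over all genes tested. In 2 of the 40 every Riclin library lay above every saline library, and in 0 every Riclin library lay below, beside 8.14% and 3.02% of all genes tested. The 2 were Hes1, a Notch target that restrains secretory fate, at 23.0 ± 0.958 FPKM in Riclin and 17.3 ± 3.23 FPKM in saline, and Ern1, a sensor of unfolded protein, at 5.59 ± 0.240 FPKM in Riclin and 5.07 ± 0.305 FPKM in saline (SD, n = 3 each).

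Of 9 tested goblet transcription factors 2 lay below 0 and 7 above (median 0.09). Xbp1, a regulator of secretory capacity, averaged 151 ± 4.87 FPKM in Riclin and 152 ± 17.7 FPKM in saline, and Klf4, a factor of goblet maturation, 48.1 ± 8.09 FPKM in Riclin and 48.6 ± 7.85 FPKM in saline (SD, n = 3 each). The secretory factor Creb3l1 had a log2 fold change of 0.09 (SE 0.154). In the mucin folding list 2 of 9 lay below 0 and 7 above (median 0.10), with the isomerases P4hb at -0.06 (SE 0.140) and Pdia3 at 0.06 (SE 0.156) and the chaperone Hspa5 at 0.35 (SE 0.177). Among genes of mucus release, ions and processing 2 of 6 lay below 0 and 4 above (median 0.11). The vesicle fusion protein Vamp8 was at -0.03 (SE 0.161), the chloride transporter Slc26a9 at 0.18 (SE 0.184) and the sodium-potassium-chloride carrier Slc12a2 at 0.09 (SE 0.150).

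Other goblet products had 5 of 9 tested genes below 0 and 4 above (median -0.20). Klk1, also listed for acinar cells, had the lowest value of all pathway lists at -2.04 (SE 1.48), with 9.77 FPKM in Riclin replicate 3. The membrane proteins Fxyd3 and Tspan1 were at 0.17 (SE 0.209) and 0.09 (SE 0.154). Both tested gel-forming mucins (median -0.24) and both trefoil factors (median -0.58) lay below 0. Among the ETS relatives of Spdef, Elf3 had a log2 fold change of -0.10 (SE 0.141), Elf1 of 0.23 (SE 0.147) and Ehf of -0.26 (SE 0.215).

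**Figure D5:**
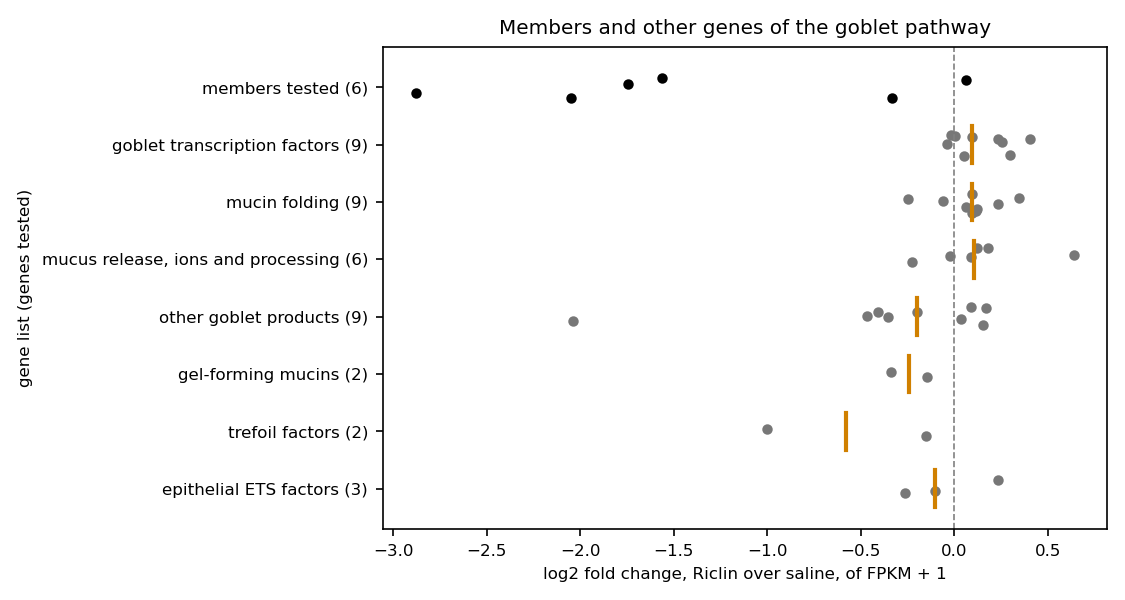
Log2 fold changes of Riclin over saline for the 6 tested members (black) and for the tested genes of 7 pathway lists (grey, 1 point per gene, with an orange line at each list's median); the CLCA family had no tested gene. Points of the transcription factor and folding lists lie around 0, with medians of 0.09 and 0.10, and the single grey point near -2 is Klk1.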

How the data were processed

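The authors deposited 1 table of FPKM values for 6 stomach libraries. Per the submitters' processing notes the build was mm10 and Bowtie2 was used. The sources used here do not give the counting tool, the annotation or the use of strand. Groups come from the treatment labels and replicate numbers from the titles.

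Tests used log2(FPKM + 1), a scale that understates changes of low genes, and Riclin was compared with saline by limma 3.58.1 (R 4.3.3) with an intensity trend, no covariate and Benjamini-Hochberg adjustment over the 11738 genes that reached 1 FPKM in 3 or more libraries. Standard errors and intervals come from that fit. Reads behind the FPKM values were recovered from the steps between libraries and came out whole for 100% of genes at a relative tolerance of 1e-09, and they summed to over 99.7% of the implied totals. Both steps were also run on simulated data. The outcome is not given here, so how often a true change would be called is not stated. Alternatives were a pseudocount of 0.1, a robust variance prior, no filter or one at 5 FPKM, scaling by median of ratios or by upper quartile, a block for the replicate number, removal of acinar genes with rescaling, voom on recovered reads, and each library left out in turn.

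The members and gene lists were chosen with earlier results of these data known. Named genes are the 7 members, the pathway genes whose groups do not overlap, the 3 pathway genes per list with the highest mean FPKM, and the genes nearest in pattern (5 for Clca1, 3 for others), leaving out predicted, receptor segment and small RNA genes. Genes named outside that rule were chosen after their values were seen. The numbers 2 and 4 are shared by both groups, and nothing in the labels says that they mark a pair.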

Additional observations from a re-analysis of the deposited data

How the results depend on the processing

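The log2 fold changes of Clca1, Fcgbp, Agr2 and Tff3 kept their sign under every alternative run for them. Those of all 6 tested members moved by less than the SD between replicates on that scale. That SD was 2.63 for Zg16, 1.94 for Fcgbp and 1.54 for Tff3, which single libraries widen. It is a loose limit for these genes and does not show that their values are stable. Over all alternatives Clca1 ranged from -1.85 to -1.55, Fcgbp from -3.75 to -1.31, Zg16 from -3.14 to 0.0035, Agr2 from -0.51 to -0.21, Spdef from -0.20 to 0.27 and Tff3 from -2.47 to -0.39. The count of genes past the adjusted threshold, 0, became 2 with a robust variance prior, 1 of them Clca1, and ranged from 0 to 1 with a library left out (1 gene, not a member, without saline replicate 2). Clca1 was chosen by its difference in this same contrast, so that call is not a test of it. The count stayed at 0 by limma under every other setting, and no other goblet pathway gene passed under any. Genes at least 2-fold different with an unadjusted p under 0.05, 50 in all, became 91 with a pseudocount of 0.1, 28 with a robust variance prior and 126 with voom, and ranged from 43 to 141 with a library left out (141 without saline replicate 2). Genes whose groups do not overlap, 1310 in all, became 2180 with no filter and 697 at an FPKM of at least 5, as more or fewer genes were tested, and 2329 to 3125 with a library left out, where fewer libraries overlap less often. Members whose groups do not overlap, 2 as deposited, numbered 3, with Agr2 added, under median-of-ratios scaling, upper-quartile scaling and acinar removal with rescaling, and 2 to 3 with 1 library left out. Under those 3 rescalings the count over all genes also rose, from 1310 as deposited to 1593, 1619 and 1675. These were out of 11738, 11738 and 11941 genes tested, so nothing is read from the added member. The cause of the other changes was not tested. With the replicate number as a block, limma called 0 genes (648 at an unadjusted p under 0.05) and the log2 fold change was -1.79 for Clca1, -3.75 for Fcgbp, -0.62 for Zg16, -0.51 for Agr2, 0.13 for Spdef and -1.84 for Tff3. Numbers 1 and 3 each occur in only 1 group, so this block fit takes its contrast from the libraries numbered 2 and 4 alone. The numbers share no stated source. Over genes, deviations from the group means correlated at 0.22 for number 2 and 0.011 for number 4. Pairs of libraries with unlike numbers ran from -0.44 to 0.39, so these correlations cannot decide whether the numbers mark pairs. Muc2 and Tff3 rest on few reads in most libraries, which limits their values.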
